A study of Caenorhabditis elegans with 2 samples.

Results

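The mitochondrial ribosomal protein genes of Caenorhabditis elegans were taken as all nuclear protein-coding genes whose symbol begins with mrpl- (large subunit) or mrps- (small subunit) in Ensembl release 115 on WBcel235. There were 70 such genes among 19973 protein-coding genes, 41 of them mrpl- and 29 mrps-, which left 19903 other protein-coding genes for comparison. The measurement was chromatin immunoprecipitation sequencing of HMG-20, which belongs to the family of proteins that bind DNA through a high-mobility-group box. Both samples were whole young adult worms of strain RW12240, aged 64 hours and synchronized by starving L1 larvae after bleaching. Their allele st12240 carries a TY1::EGFP::3xFLAG tag that CRISPR placed at hmg-20 on chromosome I, and the precipitation used an antibody against GFP. There was 1 group with 2 biological replicates and no mutant or untagged worms among the samples, so the mitochondrial ribosomal protein genes were set against the other protein-coding genes of the same libraries. Whole animals mix all tissues, so the cells in which a region was bound cannot be told. The deposited peak lists give no read totals, and the depth behind each value is unknown.

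Mitochondria carry their own ribosome, which translates the few proteins encoded by mitochondrial DNA, all of them parts of the respiratory chain. Its ribosomal RNAs come from mitochondrial DNA, whereas its proteins are encoded in the nucleus, made in the cytosol and imported. Some of these proteins belong to families shared with bacterial ribosomes and others are known only from mitochondria. In worms, disturbing the balance between nuclear and mitochondrial ribosomal proteins, as by knocking down mrps-5, is known to induce the mitochondrial unfolded protein response and to extend lifespan. Many worm genes lie in operons, in which several genes on 1 strand are transcribed from a promoter in front of the first gene. A downstream gene of an operon then often has no promoter directly in front of it, and its annotated 5' end is often a trans-splice site.

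HMG-20 was found at few of these genes past the threshold used here. A gene was scored by the ranked regions whose summit, the highest point, fell in a window from 1000 bp in front of to 200 bp behind any of its annotated 5' ends. The ranked list of both replicates gives each region a pooled signal, in authors' units on a scale the files do not state. It also gives a score from the irreproducible discovery rate (IDR), which measures how poorly a region's rank is matched between replicates. A score of 830 corresponds to an IDR of 0.01, the threshold applied here to the ranked list, and the highest possible score is 1000. It was passed by 1066 nuclear regions, whereas the conservative list of the authors held 979. Of the 70 genes, 5 had a promoter summit with an IDR of 0.01 or lower, or 7.14%, and 3.13% of the other protein-coding genes did. Those 5 genes were mrpl-12, mrpl-28, mrpl-23, mrps-7 and mrps-35. Each of the 70 genes weighs 1.43 percentage points, so the difference between these shares rests on about 3 genes. All 5 regions were also in the conservative list of the authors, which held a summit for 7.14% of the mitochondrial ribosomal protein genes and for 3.12% of the other genes.

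Sequences at the summits are shown because they are the DNA at the centre of the called regions. They span 50 bases on each side of the summit, on ce11, and are read along the strand of the named gene from the RefSeq genome sequence of the same assembly. The first 3 come from called regions in front of a gene, and the fourth from the strongest region that missed the threshold, which lay inside its gene. Capitals mark matches to the 7 short motifs described further on, on either strand. The window of mrps-35, in an untranslated region of its neighbour, and that of mrpl-23 are not shown.
mrpl-12 (chrIII:10707177-10707277, + strand): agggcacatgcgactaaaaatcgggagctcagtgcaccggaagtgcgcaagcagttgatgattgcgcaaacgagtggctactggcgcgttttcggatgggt
mrpl-28 (chrII:156063-156163, - strand): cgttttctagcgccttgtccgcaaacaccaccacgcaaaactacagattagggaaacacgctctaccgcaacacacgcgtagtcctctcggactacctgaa
mrps-7 (chrIV:14767840-14767940, - strand): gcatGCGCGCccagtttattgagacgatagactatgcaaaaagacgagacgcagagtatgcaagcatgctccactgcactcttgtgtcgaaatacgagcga
mrpl-41 (chrII:289014-289114, + strand): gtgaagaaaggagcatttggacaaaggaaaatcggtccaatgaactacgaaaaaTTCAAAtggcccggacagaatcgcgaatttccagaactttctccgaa
The 3 windows in front of genes had GC contents of 55.5% (mrpl-12), 52.5% (mrpl-28) and 49.5% (mrps-7), and the window inside mrpl-41 had 42.6%.

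The highest signal among these genes stood at mrpl-12, which encodes the protein of the flexible ribosomal stalk that recruits translation factors. Its region (WBGene00012361; chrIII:10707099-10707354) had a pooled signal of 98.9, with 53.2 in replicate 1 and 43.1 in replicate 2. The replicate signal was thus 48.2 ± 7.14 (SD, n = 2), and the region ranked 298 among the 59096 ranked regions of the nuclear chromosomes. The summit lay 534 bp upstream of mrpl-12 in intergenic sequence, the gap of 732 bp between mrpl-12 and the oppositely oriented Y39A1A.22. It stood nearer to the 5' end of Y39A1A.22, at 199 bp, and it was also 205 bp from that of Y39A1A.21. Of the 5 called regions, this one and that of mrpl-23 were also in the thresholded list of each replicate alone.

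At mrpl-28, whose product belongs to a large-subunit family shared with bacteria, the summit lay 104 bp upstream of the gene in intergenic sequence. The region (WBGene00020796; chrII:155985-156240) had a pooled signal of 88.1, with 55.4 in replicate 1 and 31.9 in replicate 2, or 43.6 ± 16.6 (SD, n = 2). Its replicates were 1.73-fold apart, the widest gap among the 5 genes. No other gene's promoter window held this summit, and the nearest 5' end of any gene class was that of mrpl-28.

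The region assigned to mrpl-23, which encodes a protein of a family found at the mouth of the exit tunnel of the ribosome, lay far from the gene. Its summit (WBGene00020348; chrI:6212713-6212968) was 956 bp upstream, in an intron of fars-1, the gene of a phenylalanyl-tRNA synthetase subunit that ends 95 bp in front of mrpl-23 on the same strand. The pooled signal was 81.8, with 40.9 in replicate 1 and 43.9 in replicate 2, or 42.4 ± 2.08 (SD, n = 2). The nearest 5' end was that of the snoRNA gene T08B2.13, at 17 bp, and the ncRNA gene T08B2.14 and the pseudogene WBGene00023344 also overlapped the region. Without summits within 200 bp of the 5' ends of small RNA genes, mrpl-23 was no longer called. In that setting 4 of the 70 genes and 535 other genes (2.69%) were called.

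The small-subunit gene mrps-7, whose product lies in the head of the small subunit in bacterial ribosomes, had its summit 160 bp upstream in intergenic sequence. Its region (WBGene00013324; chrIV:14767762-14768017) had a pooled signal of 76.4, with 32.6 in replicate 1 and 34.9 in replicate 2, or 33.7 ± 1.65 (SD, n = 2). The summit lay in the gap of 470 bp to the divergent gene Y57G11C.3, 311 bp from that gene's 5' end and thus nearer to mrps-7. A second, weaker region lay 766 bp upstream of mrps-7, with a score of 461 and a signal of 43.2. These values placed mrps-7 and mrpl-28 as the called genes whose own 5' end was the nearest of any annotated gene.

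The last called gene was mrps-35, whose product is a small-subunit protein of a family known only from mitochondria. Its region (WBGene00012697; chrV:18981047-18981302) had a pooled signal of 66.5, with 40.6 in replicate 1 and 27.7 in replicate 2, or 34.2 ± 9.14 (SD, n = 2). The summit lay 131 bp upstream of mrps-35 and inside sws-1, a gene of DNA repair by homologous recombination that runs the other way and overlaps mrps-35 by 174 bp. It was in the 5' untranslated region of sws-1, 25 bp from one of that gene's annotated 5' ends. In the other thresholded list of the series, this region was missing.

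**Figure D1:**
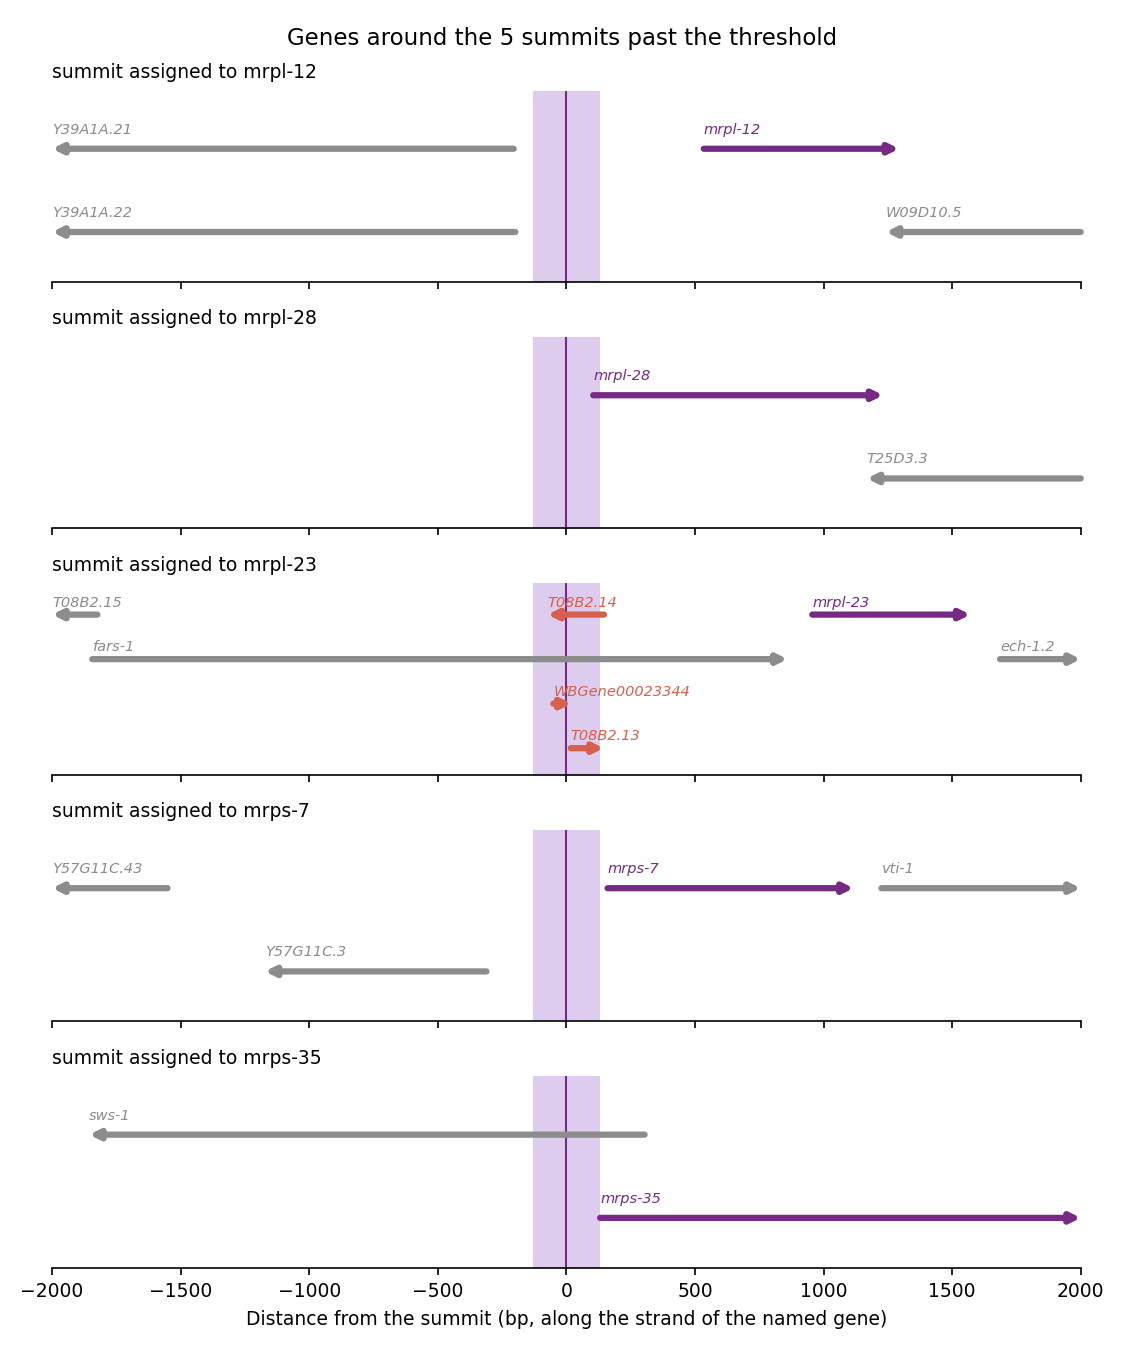
Annotated genes within 2000 bp of the 5 summits, with the distance from the summit in bp along the strand of the named gene on the horizontal axis. Genes of piRNAs were left out and are not drawn. Vertical lines are summits, shaded bands the regions, purple arrows the mitochondrial ribosomal protein genes, grey arrows other protein-coding genes and red arrows noncoding genes or pseudogenes. Arrows point in the direction of transcription and are cut at the edges of the plot. The summits of mrpl-28, mrps-7 and mrps-35 stand 104, 160 and 131 bp in front of the gene, and that of mrpl-23 stands 956 bp in front, within fars-1.

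Of the other 65 genes, 4 lay just outside the threshold, with an IDR between 0.01 and 0.05 (scores from 540 to below 830). Together with the called genes this gave 9 of 70 genes (12.9%) at an IDR of 0.05 or lower, and 4.75% of the other protein-coding genes. The nearest miss was mrpl-41, which encodes a large-subunit protein of a mitochondrial family. It had a score of 792, an IDR of 0.0124 and a pooled signal of 67.0, with 23.9 in replicate 1 and 41.8 in replicate 2, so its pooled signal was above that of the called mrps-35. Its summit lay 125 bp downstream of the annotated 5' end, in the coding sequence, and the other thresholded list of the series held this region.

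At mrpl-53, also of a mitochondrial large-subunit family, the score was 667 and the pooled signal 52.3, with 24.2 in replicate 1 and 27.3 in replicate 2. That summit lay 130 bp downstream of the 5' end, in an intron. At mrpl-49 the score was 543 and the signal 42.9, but the summit was 862 bp upstream, inside the coding sequence of rpl-28, which encodes a cytosolic ribosomal protein. At mrps-21, whose product belongs to a bacterial small-subunit family, the score was 542 and the signal 50.5. Its summit was 970 bp upstream, 286 bp from the 5' end of F29B9.11 and 504 bp from that of jmjd-1.2, a histone demethylase gene known from the mitochondrial unfolded protein response of worms.

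The next genes in order of signal scored well below the threshold. A region at mrpl-50 had a signal of 47.8 and a score of 299, and the one at mrpl-18, of the family that binds 5S rRNA in bacteria, had 47.4 and 338. The signal at mrps-18.C was 46.4 and the score 298, and this region too was in the other thresholded list of the series. For mrps-2 the signal was 42.1 and the score 133, for mrpl-13 40.7 and 63, and for mrps-30 39.0 and 389. The products of mrps-2 and mrpl-13 belong to bacterial families, while the mammalian counterpart of mrps-30 sits in the large subunit despite its name. At mrps-16 the signal of 37.8 came with replicate signals of 7.42 and 30.1, which were 4.07-fold apart, and its score was 53. At mrpl-40 the signal was 34.8 and the score 91.

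The remaining genes with a region all had signals below that at mrpl-40. The lowest signal among the 50 genes with a region was 12.7, at mrpl-10, which encodes the protein that anchors the stalk to the ribosome. At mrps-5 the signal was 23.9 and the score 27, the floor of the score in the ranked list. The floor score was held by the strongest region of 19 of the 50 genes with a region (38.0%) and of 34.6% of other genes with a region. The gene dap-3, whose product is a GTP-binding protein of the small subunit but which has another symbol, was not counted among the 70. Its strongest region had a signal of 31.8 and a score of 93, 476 bp upstream.

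**Figure D2:**
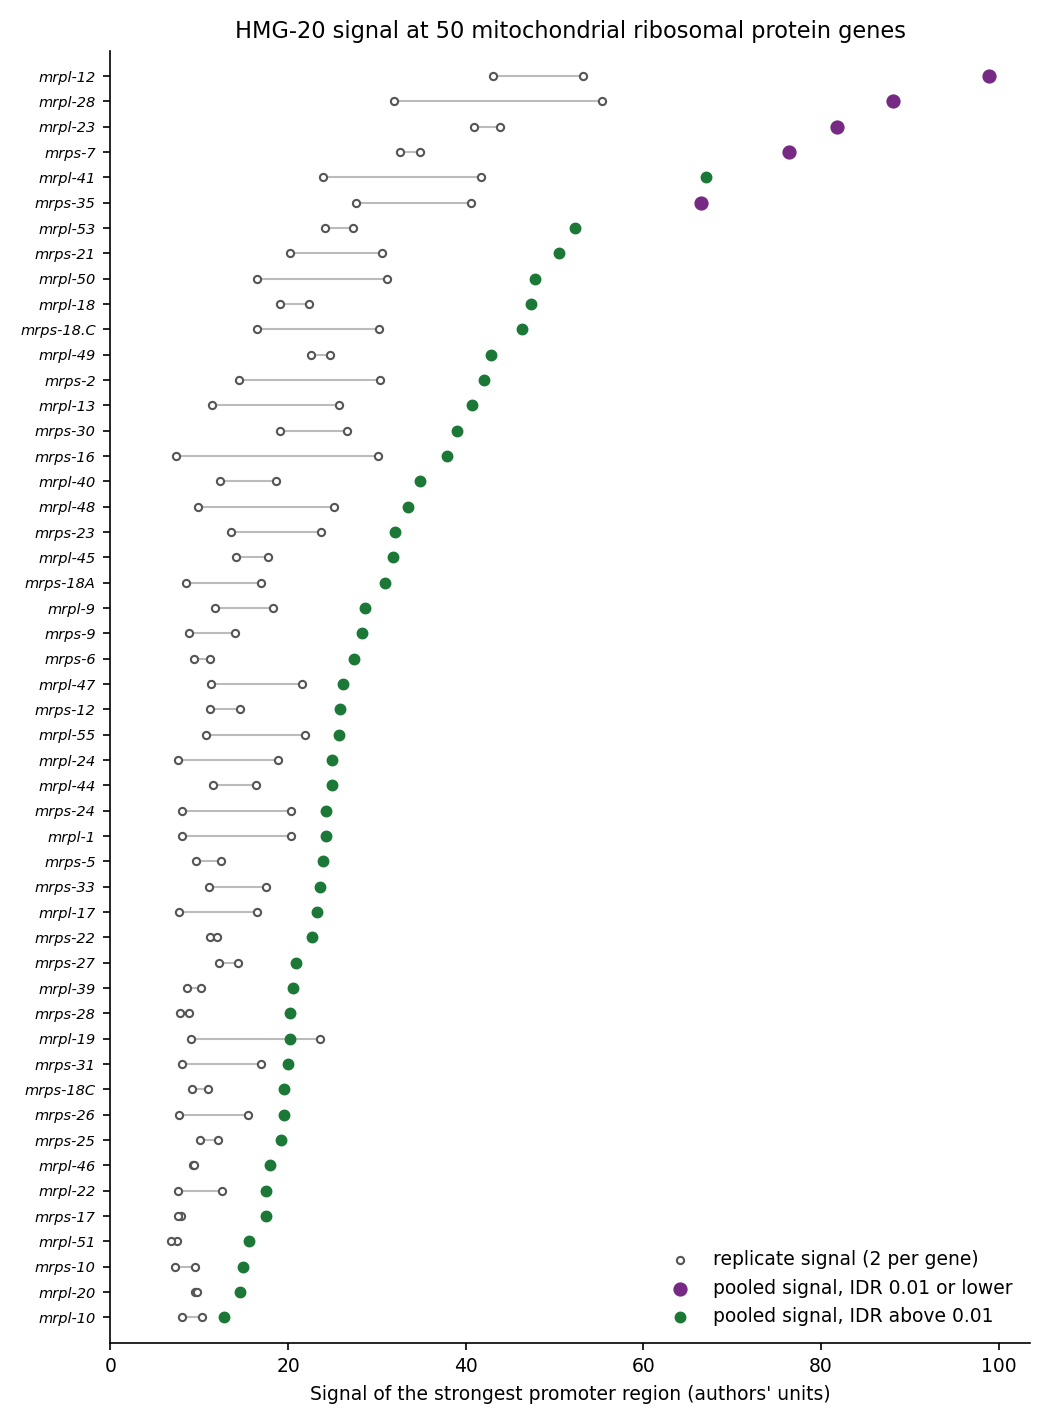
Signal of the strongest promoter region at each of the 50 mitochondrial ribosomal protein genes that had one, in the authors' units on a linear axis. Filled points are pooled signals, purple where the IDR was 0.01 or lower and green where it was above, and open points are the 2 replicate signals. The pooled values run from 12.7 at mrpl-10 to 98.9 at mrpl-12, and mrpl-41 at 67.0 is the one green point above a purple one.

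A region at any rank was present at 50 of the 70 genes (71.4%), compared with 10856 of the other protein-coding genes (54.5%). The 20 genes without one were mrpl-2, mrpl-4, mrpl-11, mrpl-15, mrpl-16, mrpl-21, mrpl-30, mrpl-32, mrpl-34, mrpl-35, mrpl-36, mrpl-37, mrpl-38, mrpl-42, mrpl-54, mrps-11, mrps-14, mrps-15, mrps-18B and mrps-34. They included mrpl-2, mrpl-4 and mrpl-16, whose families are shared with the bacterial large subunit. Of these 20 genes, 15 were of the large and 5 of the small subunit. In the ranked lists made from each replicate alone, 11 of the 20 had a region in at least 1 replicate and 2 of them, mrpl-32 and mrps-14, had one in both. For these 11 genes, an empty window in the list of both replicates did not mean that neither library had a region there. The other 9 had none in either list.

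Where a region was present, its signal was much like that at other genes. The strongest region had a median signal of 26.0 (quartiles 20.3 and 41.8) at the 50 genes and of 26.97 (20.7 and 35.6) at other genes with a region. The upper part of the distribution differed more than the middle, since 14 of the 50 genes (28.0%) had a signal above 40, compared with 17.7% of other genes with a region. The highest signal was 98.9 among these 50 genes and 396.4 among the 10856 others. A maximum tends to rise with the number of genes, so these 2 values are not a like comparison. The median score was 61.5 at the 50 genes and 73 at others. As a scale for these values, the median signal was 22.7 over all ranked nuclear regions and 76.8 over the 979 nuclear regions of the conservative list.

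**Figure D3:**
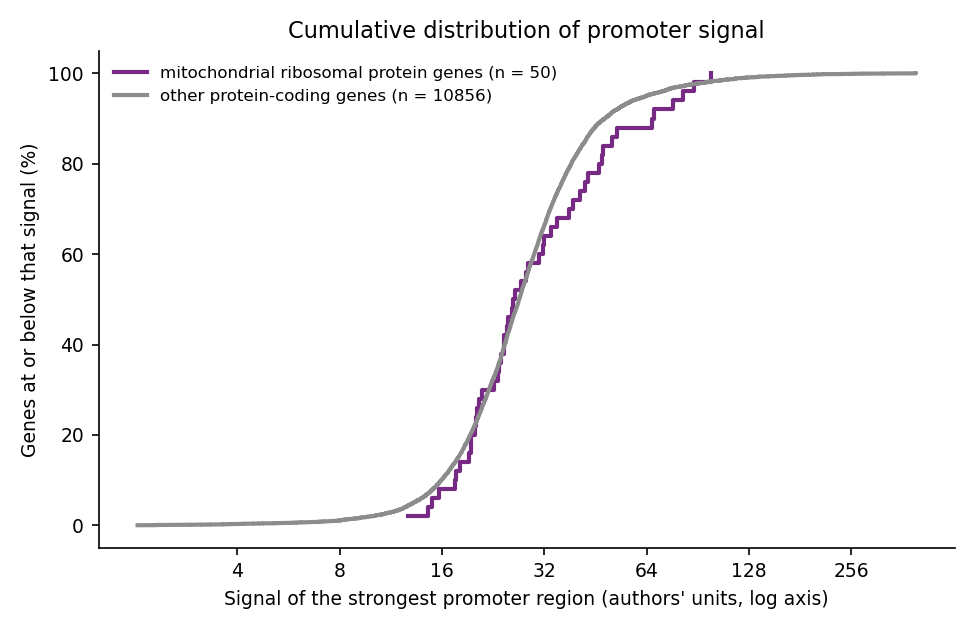
Cumulative share of genes in percent against the signal of the strongest promoter region on a log axis, in the authors' units, for 50 mitochondrial ribosomal protein genes (purple) and 10856 other protein-coding genes with a region (grey). The curves cross near their medians of 26.0 and 26.97, and the purple curve lies to the right of the grey one between 40 and 64.

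Large gaps between replicates were more frequent at these genes than at others. Replicate signals were over 2-fold apart at 12 of the 50 genes (24.0%) and at 14.6% of other genes with a region. None of the called genes was among the 12. The genes mrpl-1 and mrps-24 share a single region, 2.53-fold apart, which is counted for both. The Spearman correlation of the replicate signals across genes was 0.446 over the 50 genes and 0.351 over the other genes, which share both libraries and are not independent. In the thresholded lists of replicate 1 alone, 2 genes were called, or 2.86%, compared with 1.74% of the other protein-coding genes. The list of replicate 2 alone held the same 2 genes, mrpl-12 and mrpl-23, and called 1.56% of the other genes.

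Both subunits contributed called genes at much the same share. Of the 41 large-subunit genes 3 were called (7.32%), and of the 29 small-subunit genes 2 (6.90%), compared with 3.13% of the other protein-coding genes. A region at any rank was present at 26 large-subunit genes (63.4%) and at 24 small-subunit genes (82.8%), with median signals of 27.4 and 25.1. Of the other protein-coding genes 54.5% had one, with a median signal of 26.97. The genes were also split by the number in the symbol alone, after the values were seen. Numbers up to 36 for mrpl-, and up to 21 or equal to 24 for mrps-, were counted as families shared with bacteria. The rest were counted as mitochondrial families. No protein sequences were compared, so single genes may stand in the wrong class. Of the first class 4 of 42 genes were called (9.52%), and of the second 1 of 28 (3.57%). The share of the second class was thus close to the 3.13% of the other protein-coding genes. At an IDR of 0.05 the order turned round, with 5 of 42 (11.9%) and 4 of 28 (14.3%), compared with 4.75% of the other genes. A region at any rank was present at 64.3% and 82.1%, and at 54.5% of the other genes. One gene on each of the 5 autosomes was called, and none of the 70 genes lies on X, which holds 13.7% of all protein-coding genes. Among autosomal genes alone, 3.20% of the other protein-coding genes were called.

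Summits at these genes were often shared with, or nearer to, another gene. The strongest summit also lay in the promoter window of another protein-coding gene at 22 of the 50 genes (44.0%), compared with 22.3% of other genes with a region. The nearest protein-coding 5' end was the gene's own in 33 of 50 cases (66.0%) and in 82.6% of other genes with a region. The strongest summit lay within the body of another protein-coding gene, and not of its own, in 22 of 50 cases (44.0%) and in 21.8% of other genes. It lay in its own gene in 28.0% of cases and between genes in 28.0%, compared with 28.6% and 49.6% for other genes. The 50 genes had 49 distinct strongest summits, since mrpl-1 and mrps-24 shared one. With each summit given to the gene of any class with the nearest 5' end, 2 of the 70 genes were called, mrpl-28 and mrps-7. The other protein-coding genes called fell as well, to 342 (1.72%).

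The layout of these genes differed from that of other genes. A gene was counted as head to tail where the nearest upstream neighbour was on the same strand and 500 bp or less away, and divergent where it was on the opposite strand and 1000 bp or less away. Head to tail were 29 of the 70 genes and 3974 of the 19903 others, and divergent were 26 of the 70 and 3696 of the others. No operon annotation was used, so a head-to-tail gene is not known to lie in an operon. Within each layout the called share was 1 of 29 genes (3.45%) against 3.17% of others for head-to-tail genes, and 3 of 26 (11.5%) against 6.39% for divergent genes. For the remaining genes it was 1 of 15 (6.67%) against 2.13%. With head-to-tail genes left out, 4 of 41 genes (9.76%) and 3.12% of other genes were called.

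Some head-to-tail genes had their strongest summit inside the gene. Of the 20 head-to-tail genes with a region, 8 had the strongest summit downstream of the 5' end (40%), compared with 24.8% of other head-to-tail genes with a region. These 8 were mrpl-41, mrpl-53, mrpl-50, mrps-18.C, mrpl-13, mrps-30, mrpl-48 and mrps-26, a grouping made after the values were seen. Their median signal was 43.6 (range 19.5 to 67.0), and the 599 other head-to-tail genes of that kind had a median of 28.8. The 12 head-to-tail genes with an upstream summit had a median of 24.7, compared with 27.2 at others. None of the 8 passed an IDR of 0.01, and their IDR ranged widely, with 0.0124 at mrpl-41, 0.0247 at mrpl-53, 0.19 at mrpl-50 and 0.858 at mrps-26. The other genes with an IDR between 0.01 and 0.05, mrpl-49 and mrps-21, had their strongest summits 862 and 970 bp upstream. At mrps-21 a second region, 119 bp downstream of the 5' end, had almost the same signal (50.481, compared with 50.485) and a score of 321. At mrps-2 the signals were 42.1 at 311 bp upstream and 41.3 at 190 bp downstream. Both head-to-tail genes were counted as upstream on these small differences. In the pair mrps-2 and mrpl-4, which lie head to tail 105 bp apart, the first had a region and the second had none.

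Over all 50 genes the strongest summit lay at a median offset of -388 bp from the 5' end, where negative is upstream, compared with -321 bp at other genes. It was within 200 bp of the 5' end at 38.0% of the 50 genes and at 39.7% of other genes. Upstream summits made up 74.0% of cases here and 80.0% at other genes. Among the called genes, 3 summits lay within 200 bp of the 5' end and those of mrpl-12 and mrpl-23 lay farther away.

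**Figure D4:**
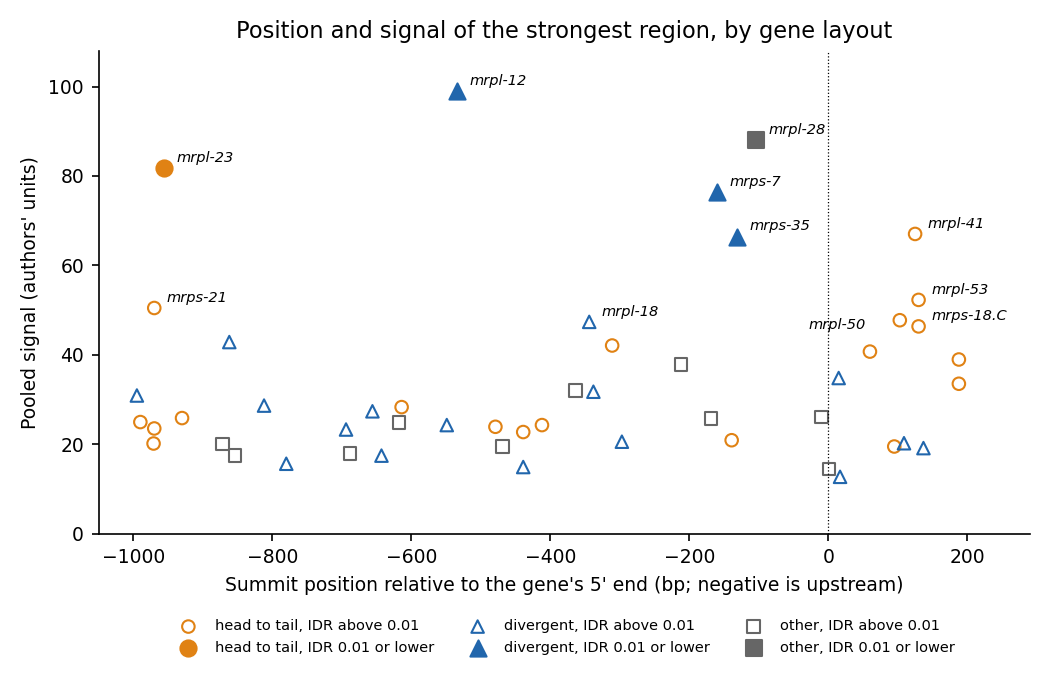
Pooled signal in the authors' units against the position of the strongest summit relative to the 5' end in bp, for 50 mitochondrial ribosomal protein genes. Orange circles are head-to-tail genes, blue triangles divergent genes and grey squares the remaining genes, and filled symbols have an IDR of 0.01 or lower. All 5 filled symbols lie upstream, and the group of open circles downstream holds mrpl-41, mrpl-53, mrpl-50 and mrps-18.C at signals from 46.4 to 67.0.

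The DNA at the called summits was rich in G and C compared with ranked regions in general. The same windows of 50 bases on each side had, at the 5 called summits, a median GC content of 53.5% (range 49.5% to 55.5%). The other 45 genes with a region had a median of 41.6%, all 1066 nuclear summits past the threshold had 49.5%, and all ranked nuclear summits had 41.6%. The promoters of the 70 genes, as 250 bp upstream to 50 bp downstream of the outermost 5' end, had a median GC content of 32.3%, compared with 34.3% for other promoters.

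Short motifs were counted on both strands of those promoters of 300 bases. None of the 7 strings contains another, and CACGTG reads the same on both strands, as do TTCGAA and GCGCGC. A match is a description of letters, not a binding site. CCGCCC was in 6 of 70 promoters (8.57%) and in 7.83% of other promoters, and CACGTG in 5 (7.14%) and 5.81%. GAGAGA was in 15 (21.4%) and 21.8%, TATAAA in 24 (34.3%) and 38.0%, and TTCGAA in 13 (18.6%) and 18.2%. TTTGAA was in 47 (67.1%) and 62.5%. GCGCGC was in 6 (8.57%) and 3.57%, a gap of about 3 to 4 genes. At the 5 called summits, GCGCGC was found once, at mrps-7, TTTGAA once, in a window not shown above, and the other 5 motifs not at all. Among all 1066 nuclear summits past the threshold GCGCGC was in 6.57% and GAGAGA in 15.01%, compared with 1.34% and 7.61% of all ranked summits.

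Other nuclear genes of mitochondrial gene expression held 3 called genes among 33, with dap-3 counted among the 33 and not called. The share of all other protein-coding genes called was 3.13%, and in lists this short 1 gene moves the share by several points. Of 8 genes matched in the list of translation factors, which also held letm-1 and oxa-1, 1 was called (12.5%), gfm-1. It encodes the mitochondrial elongation factor G and had a signal of 59.2 and a summit 122 bp upstream. Of 15 aminoacyl-tRNA synthetase genes, mitochondrial or shared with the cytosol, 1 was called (6.67%), ears-2. It encodes the mitochondrial glutamyl-tRNA synthetase and had a signal of 75.7 at 13 bp. Of 9 genes of mitochondrial DNA maintenance and transcription, 1 was called (11.1%), atad-3, an ATPase of the mitochondrial membrane, with a signal of 135.7 at 406 bp upstream. In each of these 3 cases the nearest 5' end was that of the called gene itself. The lists leave out genes whose symbols were not matched.

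The cytosolic ribosomal proteins and the respiratory chain stood higher. Of 81 cytosolic ribosomal protein genes 26 were called (32.1%), with a median signal of 45.4 at genes with a region and 396.4 at the strongest, rpl-3. The other called genes of that list were rpl-7A, rpl-11.2, rpl-12, rpl-14, rpl-15, rpl-16, rpl-20, rpl-22, rpl-23, rpl-24.1, rpl-24.2, rpl-27, rpl-29, rpl-35, rps-1, rps-10, rps-11, rps-12, rps-15, rps-19, rps-20, rps-23, rps-24, rps-26 and rps-28. Of 45 nuclear genes of the respiratory chain and its assembly, 7 were called (15.6%), with a median signal of 36.3. These were cox-5A, cox-5B and cox-6A of cytochrome c oxidase, atp-1 and atp-5 of the ATP synthase, and cyc-1 and ucr-2.2 of the complex that oxidizes ubiquinol, with signals from 64.2 at ucr-2.2 to 234.0 at cox-5A. The highest signal at a mitochondrial ribosomal protein gene, 98.9, was thus below those of 13 called cytosolic ribosomal protein genes.

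**Figure D5:**
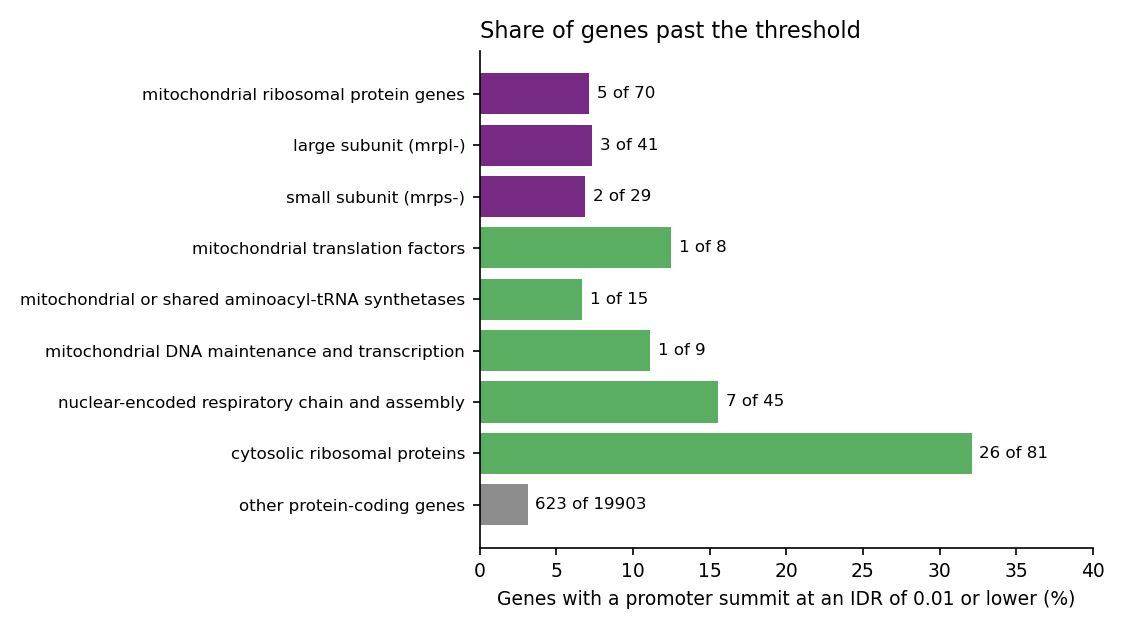
Share of genes in percent with a promoter summit at an IDR of 0.01 or lower, for the mitochondrial ribosomal protein genes and their subunits (purple), other gene lists (green) and the other protein-coding genes (grey), with the number of genes beside each bar. The share is 7.14% for the 70 genes, 32.1% for cytosolic ribosomal proteins and 3.13% for the other protein-coding genes, which include the listed genes.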

How the data were processed

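The deposited files are peak lists of ChIP-seq in 2 biological replicates on ce11, per the file headers and labels. The aligner and the peak caller were not given in the sources used here. The control was not analysed here. The deposited score column is the scaled IDR of a region, the deposited signal column is in authors' units of unstated scale, and the deposited −log10 columns hold the IDR and q-value. Lists of both replicates and of each replicate alone were deposited. The 2 replicate columns of the joint list carry no replicate number, so replicates were named from each replicate's own ranked list, which held equal signals for the genes concerned.

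Regions were assigned with Python 3.11.15, NumPy 2.4.6 and pandas 2.3.3 to 5' ends of Ensembl release 115, whose WBcel235 chromosomes hold all regions (0 lie outside). Mitochondrial regions were left out. The strongest region of a gene is the one with the highest pooled signal. Assignment was tested on simulated summits. Sequences are from RefSeq for the same assembly.

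With 1 group, no test was run: counts and medians stand beside those of the other protein-coding genes, and each SD is over 2 replicates. The members, lists and rules were chosen with earlier results of these data known. Named are all called genes, those in any thresholded list, the 12 next by signal, the lowest and those without a region. Outside this rule, mrps-5, mrpl-48, mrps-26, mrpl-1 and mrps-24 were named after their values were seen. The family split and the groups of summits by side were made after the values were seen. Alternatives changed the window, the threshold, the list, the assignment and the replicate, and 3 were added after seeing the data: autosomes alone (for 2 results) and head-to-tail genes left out.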

Additional observations from a re-analysis of the deposited data

How the results depend on the processing

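The number of called mitochondrial ribosomal protein genes, 5 with the settings used above, depended on how summits were given to genes. The share of other genes called was 3.13% with those settings. That share moved the same way under most of the alternatives at which the number changed. The number was 3 with promoters of 500 bp on each side (516 other genes, 2.59%) and 2 with the nearest gene of any class (342, 1.72%). It was 3 with the nearest protein-coding gene (466, 2.34%) and 9 at an IDR of 0.05 (946, 4.75%). It was 2 with the list of replicate 1 alone (347 other genes, 1.74%) and 2 with that of replicate 2 alone (310, 1.56%). Outermost 5' ends (586 other genes, 2.94%), the conservative list (620, 3.12%) and autosomes alone (549, 3.20% of other autosomal genes) each gave 5. The other thresholded list, which shares 4 of the 5 genes, gave 6 (3.12% of other genes), and any overlap of 1 bp gave 6 (3.37%). A window of 2000 bp upstream gave 7, with 4.33% of other genes, and summits away from small RNA genes gave 4 (2.69%). The median signal, 26.0, was 21.8 with genes without a region set to 0 (15.2 for other genes) and 18.7 to 18.9 with the ranked list of 1 replicate, where other genes had 15.5 and 16.4. The median summit offset, -388 bp, was -833 bp with 2000 bp upstream and reversed to 106 bp downstream with 500 bp on each side, where other genes had 12 bp. That setting changed both the upstream and the downstream reach, and their parts were not told apart. The other mitochondrial gene expression genes called, 3, were 1 to 2 with the list of 1 replicate. The number of genes with a region stayed within 1.5 times of 50 in all 8 alternatives run for it. No paired analysis was possible because there is 1 group and no result comes from a test. Depth is unknown, and the choice between a gene and its neighbour cannot be settled by position.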
